A study of Mus musculus with 38 samples.

Results

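The genes described here were the replication-dependent histone genes of the mouse, taken as every gene of the GENCODE vM1 annotation (mm9) whose symbol starts with Hist1h, Hist2h, Hist3h or Hist4h. This gave 70 genes out of 37310 annotated genes, made up of 6 H1, 20 H2A, 19 H2B, 12 H3 and 13 H4 genes, of which 3 (Hist1h2aj, Hist3h2bb-ps and Hist2h3c2) are annotated as pseudogenes. These genes supply the core histones H2A, H2B, H3 and H4, which form the nucleosome, and the linker histone H1, which sits on the DNA between nucleosomes. They are switched on as cells copy their DNA, mostly lack introns, and make mRNAs that end in a stem-loop in place of a poly(A) tail. They lie in dense clusters, and the largest of these, Hist1, is among the most gene-rich stretches of the genome and is gathered with others at the histone locus body of the nucleus.

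The study mapped SATB1, a chromatin organizer abundant in thymocytes, and compared it with base-unpairing regions (BURs), AT-rich DNA stretches that tend to open under stress. All cells came from wild-type C57BL/6 mice, and 11 peak lists were used. Urea ChIP-seq, which spins fixed chromatin through 8 M urea to strip proteins held to DNA indirectly, gave 2 SATB1 lists each from thymocytes, brain cells (cortex) and skin (epidermal keratinocytes), and 1 CTCF list each from thymocytes and skin. Standard ChIP-seq of SATB1, which uses the soluble part of sonicated chromatin, gave 2 thymocyte lists that differed in antibody and in sonication (15 s in replicate 1 and 150 s in replicate 2), and the BUR reference map was a single list of DNA bound in vitro. Thymocyte and skin samples were labelled as 13 days old, although the titles of standard replicate 1 and of the thymocyte CTCF sample say 6 weeks and the skin protocol says 5 days. Brain samples were labelled as 5 and 6 weeks old and their protocol as 13 days. The lists hold peak positions with a fold enrichment and a q-value and no reads or gene expression, so sequencing depth is unknown and the labelled cell types could not be checked against marker genes. List size ran from 10846 (skin replicate 2) to 238380 peaks (BUR map). The study's methods checklist describes replicates as cells from different animals, and the sample labels name no animal. The titles of the 2 urea SATB1 samples of each cell type share a code number. They differ in antibody volume in thymocytes (4 and 2 µl), in cycles in brain (10 and 12) and in sonication in skin (55 and 60 s). Whether the 2 are separate preparations is therefore unknown, and the SDs and tests below treat them as separate samples.

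The 70 genes fell into 8 runs, with a new run wherever neighbouring genes were 100 kb or more apart. The Hist1 genes on chromosome 13 made up 5 runs: Hist1h2bl to Hist1h2br (19 genes), Hist1h2ah to Hist1h2bj (5 genes), Hist1h4h to Hist1h1a (29 genes), the pair Hist1h2ba and Hist1h2aa, which encode testis-type histones, and Hist1h2al alone, 27.3 Mb from the others. The Hist2 run on chromosome 3 (Hist2h2ab to Hist2h2bb) held 10 genes, the Hist3 run on chromosome 11 held Hist3h2ba, Hist3h2bb-ps and Hist3h2a, and Hist4h4 lay alone on chromosome 6. The Hist1 cluster is taken below as the first 4 of its runs with 10 kb on each side, chr13:21797632-24036720, which is 2.24 Mb with 55 histone genes. The median annotated length of the 70 genes was 530 bp, against 15427 bp for all 22367 protein-coding genes on the assembled chromosomes. For that reason all-gene shares are given both for the gene body with 10 kb on each side and for 10 kb on each side of the gene start.

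Standard ChIP-seq of thymocyte SATB1 placed a peak next to nearly every histone gene. In replicate 1 all 70 genes had a peak in the gene body or 10 kb around it, where 70.3% of all protein-coding genes had one, and in replicate 2 the count was 68 of 70 genes, where the all-gene share was 59.4%. Counted within 10 kb of the gene start, the histone genes again gave 70 and 68 genes, and the all-gene shares were 63.4% and 50.8%. The 2 genes without a peak in replicate 2 were the testis-type pair Hist1h2ba and Hist1h2aa. The study reported that standard ChIP-seq also gave peaks in thymocytes lacking SATB1, mostly in gene-rich open chromatin, and many lay at wild-type peaks. It judged most standard peaks to depend on SATB1. Samples lacking SATB1 were not analysed here, so which standard peaks at histone genes depend on SATB1 is not known.

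These peaks sat on the genes themselves. Within 1 kb of the gene body a standard peak was found at 70 of 70 genes in replicate 1 and at 53 of 70 in replicate 2, and all 53 were shared, where 61.8% and 49.8% of all protein-coding genes had such a peak. A peak summit lay within 500 bp of the annotated start of 65 histone genes (92.9%) in replicate 1 and of 47 (67.1%) in replicate 2, with 45.9% and 35.1% among all protein-coding genes. The start base itself was inside a standard peak at 51 genes in replicate 1 and at 31 in replicate 2, and inside a BUR, a urea SATB1 peak or a skin CTCF peak at 0 of the 70 genes and inside a thymocyte CTCF peak at 1. The start base was not counted for all protein-coding genes. The counts of 0 and 1 are therefore not shown to differ from those of other genes. Because histone genes are so close together the peaks are fewer than gene and peak counts imply: 81 distinct peaks in replicate 1 and 57 in replicate 2 lay within 1 kb of a histone gene, and 45 and 28 of them served 2 or 3 genes at once.

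**Figure D1:**
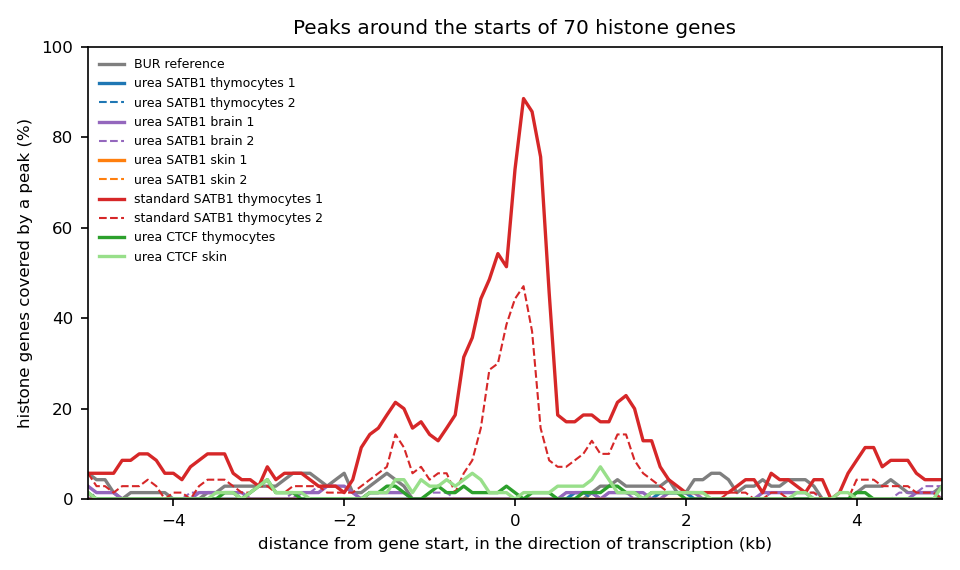
Share of the 70 histone genes (y axis, %) whose DNA at a given distance from the gene start (x axis, kb, in the direction of transcription) was covered by a peak, with 1 line for each of the 11 lists (solid, replicate 1 or the only list; dashed, replicate 2). The 2 standard SATB1 lists covered 72.9% and 44.3% of genes at the start base and were highest 100 bp after it, at 88.6% and 47.1%, and the other lists stay near the bottom across the 10 kb shown. No line for all protein-coding genes is drawn.

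Every gene of each family had a standard peak within 1 kb in replicate 1. In replicate 2 a standard peak within 1 kb of the gene was found at 6 of 6 H1 genes, 12 of 13 H4 genes, 9 of 12 H3 genes, 14 of 20 H2A genes and 12 of 19 H2B genes, and the families were not tested against each other. The 17 genes that had a peak only in replicate 1 were 6 H2A, 7 H2B, 3 H3 and 1 H4 genes, and their fold enrichment in replicate 1 ran from 2.71 (Hist1h3g) to 6.23 (Hist1h2ab and Hist1h3b, which share a peak), with a median of 4.02. Genes with a peak in both replicates ran from 3.4 to 12.2 with a median of 5.74 in replicate 1, and from 3.22 to 9.34 with a median of 4.97 in replicate 2, so the 2 sets of genes overlapped in replicate 1. The median fold enrichment of the peaks next to histone genes (4.5 and 4.24) was below that of each whole list (6.35 and 6.12).

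**Figure D2:**
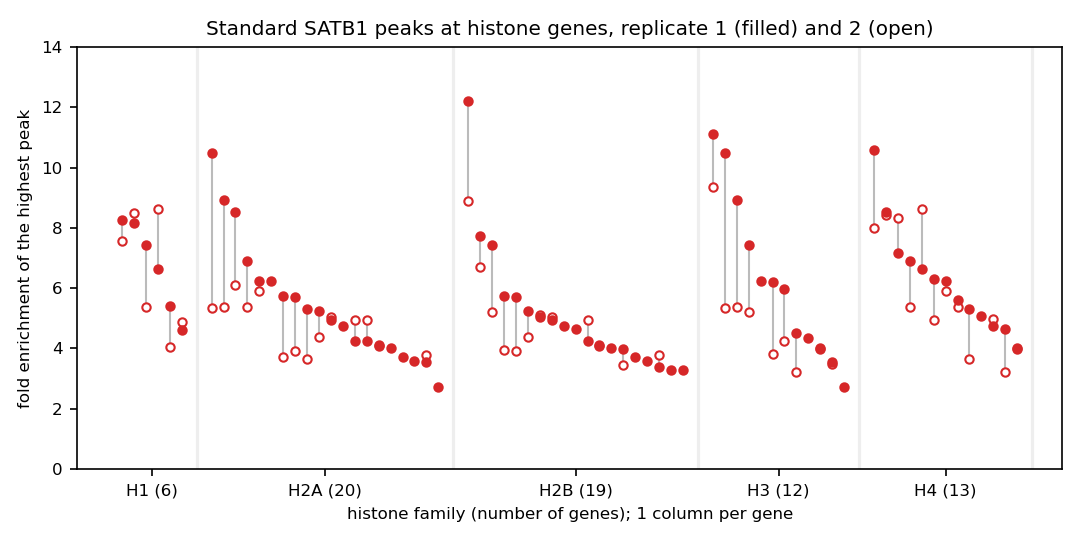
Fold enrichment (y axis) of the highest standard SATB1 peak within 1 kb of each of the 70 histone genes, 1 column per gene, grouped by family and ordered by replicate 1 (filled points); open points are replicate 2 and are missing for the 17 genes with no peak there. Most values lie between 3 and 8, and the highest are those of Hist2h2bb, Hist1h3e and Hist2h4.

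The 11 genes with the highest mean fold enrichment of the standard peaks in both replicates (10 by rank, with a tie at the last place) covered every family. Hist2h2bb, an H2B gene of the Hist2 cluster, had 12.2 in replicate 1 and 8.89 in replicate 2 (mean 10.5 ± 2.32, SD, n = 2), but the summit lay 8394 and 8415 bp downstream of its start, near the far end of a gene annotated as 9281 bp long, inside a CTCF peak of thymocytes and of skin. A lower standard peak lay at its start in both replicates. Hist1h3e, an H3 gene, had 11.1 and 9.34 (mean 10.2 ± 1.27), with summits 22 bp after and 132 bp before the start. Hist2h4, an H4 gene, had 10.6 and 7.98 (mean 9.3 ± 1.88) with summits 44 and 115 bp before the start and CTCF peaks of both cell types over them. In all 3 genes replicate 2 was the lower value.

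Hist4h4, the lone H4 gene of chromosome 6, had the closest replicates of this group, 8.53 and 8.44 (mean 8.48 ± 0.0615), with summits 6 bp before and 2 bp after the start and no CTCF peak. The linker histone genes Hist1h1c (8.16 and 8.49) and Hist1h1d (8.27 and 7.58) had peaks in the gene and no CTCF overlap. Hist2h3c2 and Hist2h2aa2 shared 1 peak with values of 10.5 and 5.34, the widest gap between replicates here (SD 3.63). Hist1h4j, an H4 gene, had 7.17 and 8.34, and Hist1h4c, an H4 gene, shared a peak of 6.65 and 8.64 with Hist1h1t, the testis linker histone gene. In both replicates that last peak overlapped CTCF in both cell types. Among the highest standard peaks of the 11 genes it alone overlapped urea SATB1 peaks of thymocytes. None of these highest peaks overlapped a BUR, and lower standard peaks of the 11 genes were not checked for overlap.

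The promoters of 4 of the highest-ranked genes are shown because most histone genes had a standard summit near the start. Each is the 250 bases before the annotated start, on the strand of the gene, in the mm9 build, at chr3:96073394-96073643 (Hist2h2bb, + strand), chr13:23654239-23654488 (Hist1h3e, - strand), chr6:136752901-136753150 (Hist4h4, - strand) and chr13:23830426-23830675 (Hist1h1c, + strand). Capitals mark the CCAAT box (CCAAT on either strand), the octamer ATTTGCAT (either strand) and the TATA box TATAAA (either strand), and none of the marked motifs overlap.
Hist2h2bb: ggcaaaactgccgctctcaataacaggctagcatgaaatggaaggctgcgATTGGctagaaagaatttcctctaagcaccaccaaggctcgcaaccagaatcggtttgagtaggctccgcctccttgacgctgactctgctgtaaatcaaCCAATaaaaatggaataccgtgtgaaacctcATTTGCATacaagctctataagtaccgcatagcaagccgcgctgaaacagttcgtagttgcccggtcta
Hist1h3e: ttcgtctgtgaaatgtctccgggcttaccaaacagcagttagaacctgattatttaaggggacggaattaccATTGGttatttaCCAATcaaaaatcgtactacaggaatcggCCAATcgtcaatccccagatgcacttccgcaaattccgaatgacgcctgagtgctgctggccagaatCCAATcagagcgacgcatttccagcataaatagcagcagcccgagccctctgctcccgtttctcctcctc
Hist4h4: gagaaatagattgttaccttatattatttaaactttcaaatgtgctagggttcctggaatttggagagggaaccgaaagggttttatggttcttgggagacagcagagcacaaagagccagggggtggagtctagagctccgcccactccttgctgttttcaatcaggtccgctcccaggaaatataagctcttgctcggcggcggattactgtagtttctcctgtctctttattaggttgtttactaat
Hist1h1c: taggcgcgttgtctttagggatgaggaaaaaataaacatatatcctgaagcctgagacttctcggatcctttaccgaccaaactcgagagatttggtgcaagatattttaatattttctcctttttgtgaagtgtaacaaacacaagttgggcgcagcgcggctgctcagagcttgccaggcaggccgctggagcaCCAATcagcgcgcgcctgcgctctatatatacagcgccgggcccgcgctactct
Hist2h2bb carried the octamer, the motif through which H2B promoters are known to be activated, together with 2 CCAAT boxes. Hist1h3e carried 4 CCAAT boxes, Hist1h1c carried 1, and Hist4h4 carried none of the 3 motifs in these exact letters.

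Over the 250 bases before the start, CCAAT was found in 58 of the 70 histone promoters (82.9%) against 35.0% of all protein-coding promoters of the same length. It was in all 19 H2B and all 6 H1 promoters, in 19 of 20 H2A and 10 of 12 H3 promoters, and in 4 of 13 H4 promoters. The octamer was in 16 histone promoters (22.9%, against 1.62% of all), 9 of H2B and 7 of H2A, and in none of the H1, H3 and H4 promoters. TATAAA was in 33 histone promoters (47.1%, against 12.3%). The histone promoters had a median AT content of 55.4%, and all protein-coding promoters 46.0%. Many histone promoters are near copies of each other, so these counts are not of independent sequences. The 300 bases around the summits of the standard peaks next to histone genes were less AT-rich, with medians of 41.7% and 44.7% AT in the 2 replicates, against 48.3% in each whole list.

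Parts of the histone clusters cannot be told apart by short reads, and this touches the values above. The share of 50-base words of the gene body that occur once in the genome had a median of 54.2% over the 70 genes, from 0.0% to 100.0%, and by family the median ran from 39.6% in H2A to 97.7% in H1. In all, 6 genes had no unique word in the gene body: Hist1h2bq, Hist1h2ao, Hist1h2ap and Hist1h2br, which lie in a pair of near-identical copies, and Hist2h2aa1 and Hist2h2aa2. The deposited reads were stated to be unique matches, yet standard peaks lay within 1 kb of all 6 of these genes in replicate 1 and of 5 in replicate 2. Around Hist1h2bq and Hist1h2br even the 1 kb flanks held no unique word, and the peaks there had a fold enrichment of 3.29 (Hist1h2bq, replicate 1 alone) and of 3.98 and 3.46 (Hist1h2br). Peaks at these paralogs are therefore uncertain. Among the 39 genes whose body was at least 50% unique, the standard counts were 39 and 29.

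Urea ChIP-seq gave a different picture. A urea SATB1 peak lay in the gene body or 10 kb around it at 13 and 9 histone genes in the 2 thymocyte replicates (11.0 ± 2.83, SD, n = 2), at 22 and 25 in brain (23.5 ± 2.12) and at 5 and 4 in skin (4.5 ± 0.707). The all-gene shares in the same order were 36.4% and 34.3%, 53.5% and 51.6%, and 16.5% and 16.0%, and the histone genes' shares were 18.6% and 12.9%, 31.4% and 35.7%, and 7.14% and 5.71%. Within 10 kb of the start the histone genes had 11 and 7 (thymocytes), 22 and 25 (brain) and 3 and 3 genes (skin), and the all-gene shares were 19.0% and 17.5%, 35.7% and 33.9%, and 6.44% and 6.21%. Measured from the start, where gene length plays no part, the histone shares were close to those of all genes in brain and lower in thymocytes and skin. The thymocyte and skin counts are small and come from few peaks shared between neighbouring genes. The difference from all genes was not tested, so they are not shown to be depleted. In all, 27 histone genes had a urea SATB1 peak in the body or 10 kb window in at least 1 of the 6 lists and 43 had none. The all-gene share for this pooled count was not taken.

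**Figure D3:**
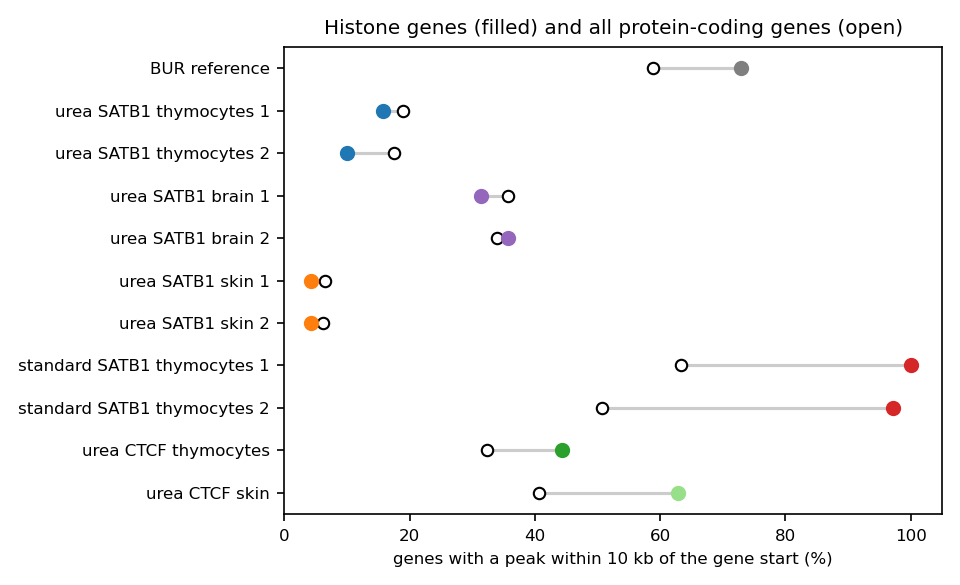
Share of genes (x axis, %) with at least 1 peak within 10 kb of the gene start in each of the 11 lists, for the 70 histone genes (filled) and all 22367 protein-coding genes (open). The standard SATB1 lists reach 100.0% and 97.1% of histone genes, the CTCF lists and the BUR map lie to the right of all genes, and the urea SATB1 lists lie near or to the left of them except brain replicate 2.

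The difference between the standard and the urea lists of thymocytes was 58 histone genes (69 ± 1.41 against 11.0 ± 2.83, n = 2 and 2), and the groups did not overlap. The exact two-sided permutation test gave p = 0.333 (0.444 after Benjamini-Hochberg adjustment over 4 tests), the smallest value that 2 against 2 samples allow. The number of histone genes with a urea SATB1 peak was ordered skin, thymocytes, brain without overlap, with p = 0.0111 by the exact one-sided Jonckheere-Terpstra permutation test over 90 arrangements (adjusted p = 0.0222). The tested order was the one the study had reported across the genome from these same samples. The p-value is therefore no independent support for that order. The sizes of the lists had the same order, and when each list was cut to its strongest 10846 peaks, the size of the smallest, the counts were 5 and 4 in skin, 5 and 5 in thymocytes and 1 and 1 in brain, and the order was gone (exact p = 0.9).

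In thymocytes and brain the H3 genes had the fewest urea SATB1 peaks for their number. In thymocytes and skin 0 of the 12 H3 genes had a urea peak in the window, and in brain 1 and 2 had one. The other families in thymocytes had 2 and 2 of 6 H1 genes, 3 and 2 of 20 H2A genes, 4 and 3 of 19 H2B genes and 4 and 2 of 13 H4 genes. In brain they had 3 and 2 H1, 6 and 8 H2A, 8 and 10 H2B and 4 and 3 H4 genes. These are counts of few peaks shared between neighbours: the windows of the 70 genes held 17 separate urea SATB1 sites, of which 5 were in both thymocyte replicates, 11 in both brain replicates and 2 in both skin replicates.

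Apart from the site inside Hist1h2be described next, the thymocyte site nearest a gene lay 139 bp beyond the 3' end of Hist1h4c and 769 bp beyond that of Hist1h1t (534 and 1678 bp from their starts), at chr13:23789358-23789789. Its fold enrichment was 9.65 and 6.24 in thymocytes and 7.29 in brain replicate 1, and no peak was listed in brain replicate 2 or in skin. It overlapped no BUR, and it did overlap both standard SATB1 peaks and CTCF in thymocytes (9.43) and skin (7.39). It is the site described above for Hist1h4c. The other 4 thymocyte sites overlapped BURs. One lay inside the annotated body of Hist1h2be, an H2B gene whose vM1 model spans 37383 bp, 31107 bp from its start, with 13.3 and 14.3 in thymocytes. It was 7.47 kb from Hist1h4d, an H4 gene. Another lay 7.76 kb from Hist1h2ah and 8.47 kb from Hist1h2bk (18.6 and 15.9), one more 8.27 kb from the linker histone gene Hist1h1e and 9.65 kb from Hist1h2be (11.3 and 9.33), and the last 9.21 kb from Hist1h2ac (14.6 and 15.2). The site near Hist1h1e also overlapped a standard SATB1 peak of replicate 2 (5.38) and a skin CTCF peak (5.49). Hist1h2bc lay 5.0 kb from the Hist1h4c site. No thymocyte urea site was in the window of a Hist2, Hist3 or Hist4 gene in both replicates.

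Among sites in both brain replicates, those nearest to a gene were that of Hist1h2be (8.24 and 11.7), one 1.82 kb from Hist1h1c (5.18 and 5.74), and one on chromosome 3 that lay 1.9 kb from Hist2h2ab, 2.35 kb from Hist2h2ac and 3.11 kb from Hist2h2be (8.05 and 7.51). The testis-type pair Hist1h2aa and Hist1h2ba lay 4.27 and 4.96 kb from a brain site (5.56 and 5.08), and Hist3h2ba lay 6.98 kb from one (5.18 and 5.08). Apart from that of Hist1h2be, none of these sites was in both replicates of thymocytes or of skin. In skin the 2 sites found in both replicates were that of Hist1h2be (11.5 and 7.98) and that of Hist1h2ah and Hist1h2bk (6.08 and 5.53). Hist1h4d fell within 10 kb of the first of them. Across the 70 genes the median distance from the gene start to the nearest urea SATB1 peak was 24.8 and 45.9 kb in thymocytes, 17.0 and 17.0 kb in brain and 87.0 and 169.0 kb in skin, and all protein-coding genes had 37.2 and 40.7, 17.9 and 19.3, and 115.0 and 120.0 kb.

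Across the Hist1 cluster 75 separate urea SATB1 sites were found, and 3 of them were in both replicates of all 3 cell types. Each of the 3 overlapped a BUR. Of these, 2 are shown as the 300 bases around the summit of thymocyte replicate 1 (mm9, + strand), and capitals mark the longest run that has no G on one of its strands, a sequence feature that BURs are known for. The site in the gap between the histone runs is chr13:22823365-22823664 (46 bases, shown strand), and the site in Hist1h2be is chr13:23681458-23681757 (73 bases, shown strand).
site in the gap: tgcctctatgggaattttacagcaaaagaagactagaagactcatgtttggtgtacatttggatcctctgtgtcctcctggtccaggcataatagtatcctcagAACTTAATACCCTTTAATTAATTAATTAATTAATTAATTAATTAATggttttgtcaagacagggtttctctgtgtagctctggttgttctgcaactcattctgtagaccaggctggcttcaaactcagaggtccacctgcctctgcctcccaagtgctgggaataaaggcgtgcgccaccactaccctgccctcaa
site in Hist1h2be: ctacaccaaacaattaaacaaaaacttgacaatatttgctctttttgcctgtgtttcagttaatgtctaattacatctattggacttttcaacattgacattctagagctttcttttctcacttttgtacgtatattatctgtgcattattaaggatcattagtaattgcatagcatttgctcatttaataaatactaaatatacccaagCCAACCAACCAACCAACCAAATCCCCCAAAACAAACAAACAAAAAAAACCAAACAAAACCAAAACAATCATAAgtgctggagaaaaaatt
The remaining one, near Hist1h2ah, had its lowest values in skin (17.2 ± 1.9 in thymocytes, 18.1 ± 0.787 in brain and 5.8 ± 0.39 in skin, SD, n = 2). The gap site, 687669 bp from Hist1h2bj, had 22.3 ± 0.582, 15.6 ± 1.33 and 18.8 ± 0.696 in the same order, and the site in Hist1h2be had 13.8 ± 0.758, 9.98 ± 2.45 and 9.75 ± 2.51. Fold enrichment depends on the depth and background of each library, which are unknown here, so no test was made between cell types. The AT content of the 2 windows shown was 56.7% and 69.3%. In the 300 bases around the summits of the 163 BURs of the cluster the longest run without G had a median of 37 bases and the AT content a median of 70.0%, and over all BURs the medians were 40 bases and 71.7%. Around the standard peaks next to histone genes the median run was 17 bases in each replicate.

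BURs were in the 10 kb windows of most histone genes, and 8 genes had a BUR within 1 kb. A BUR lay in the gene body or 10 kb around it at 51 of 70 histone genes, a share of 72.9%, and at 75.2% of all protein-coding genes, and from the gene start the counts were 51 genes and 58.9%. Within 1 kb, 8 genes had a BUR: Hist1h4j, Hist1h2bn, Hist1h2bq, Hist1h2bh, Hist1h1d, Hist1h2be, Hist1h2bc and Hist1h2ba, 6 of them H2B genes. Hist1h2be, annotated as 37383 bp long, had 4 of these BURs, and Hist1h2bc, at 8290 bp, had 3. Hist1h2bq is one of the genes without a unique word. The all-gene share within 1 kb was not counted, and most histone genes are short. None of the 13 BURs within 1 kb of a histone gene had its summit within 500 bp of a start. That share was not counted for all protein-coding genes, so it is not shown to be particular to histone genes. All 6 H1 genes had a BUR in the 10 kb window, as did 11 of 13 H4, 13 of 20 H2A, 13 of 19 H2B and 8 of 12 H3 genes.

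Across the Hist1 cluster the standard lists were denser than over the genome and the urea lists were sparser. The standard lists had 125 and 76 peaks in the cluster, 55.8 and 33.9 per Mb, and 18.0 and 10.1 per Mb over the assembled genome. The urea lists had 22 and 21 peaks in thymocytes (9.83 and 9.38 per Mb, genome 16.9 and 14.6), 63 and 57 in brain (28.1 and 25.5 per Mb, genome 44.4 and 41.1) and 6 and 4 in skin (2.68 and 1.79 per Mb, genome 4.14 and 4.0). The BUR map had 163 (72.8 per Mb, genome 87.5). The 10 kb windows of the histone genes make up 17.0% of the cluster, 380.0 kb, and held 63.2% and 61.8% of its standard summits, at 208.0 and 124.0 per Mb, against 24.7 and 15.6 per Mb in the remainder. They held 27.3% and 23.8% of the urea SATB1 summits in thymocytes, 19.0% and 21.1% in brain, 50.0% and 50.0% of the few summits in skin (3 of 6 and 2 of 4) and 19.0% of the BURs.

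**Figure D4:**
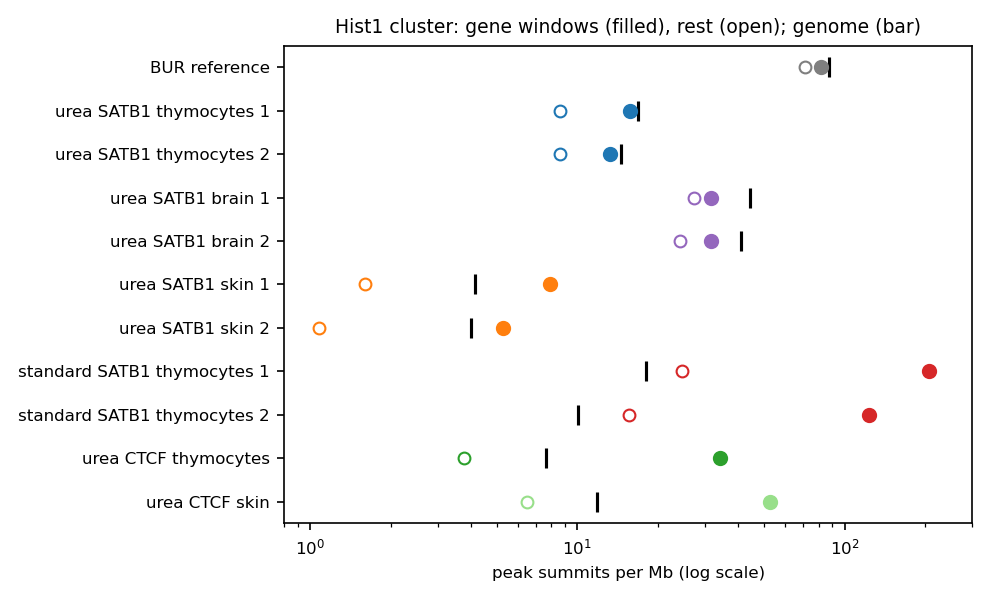
Peak summits per Mb (x axis, log scale) in the Hist1 cluster for each of the 11 lists, inside the 10 kb windows of histone genes (filled) and in the rest of the cluster (open), with the density over the assembled genome as a bar. The standard SATB1 and CTCF lists are far denser inside the windows, and the BUR map and the brain urea lists are at 81.6 and 31.6 per Mb inside and at 71.0, 27.4 and 24.2 outside. The skin urea lists, with 6 and 4 summits, are at 7.89 and 5.26 inside and 1.61 and 1.08 outside.

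The runs differed among themselves. The Hist1h4h to Hist1h1a run (253.0 kb with flanks, 29 genes) had 5 and 4 urea SATB1 summits in thymocytes, 10 and 9 in brain and 2 and 1 in skin, beside 44 and 30 standard summits and 24 BURs (94.7 per Mb). The Hist1h2bl to Hist1h2br run (142.0 kb, 19 genes) had 1 and 0 urea summits in thymocytes, 2 and 3 in brain and 0 in both skin lists, beside 28 and 13 standard summits and 9 BURs (63.5 per Mb). This run holds the non-unique copies named above, and the part of missing reads in these counts was not tested. The short Hist1h2ah to Hist1h2bj run had 1 urea summit in each of the 6 lists, all at the site near Hist1h2ah described above, and 8 and 5 standard summits. Around the testis-type pair there was 1 standard summit in replicate 1 and 0 in replicate 2, and 1 urea summit in each brain list. The gap of 1470 kb between the Hist1h2bj and Hist1h4h genes, which holds 33 vomeronasal receptor genes, had 22 and 17 standard summits (15.0 and 11.6 per Mb), of which 22 and 16 were in the 25% of the gap next to Hist1h4h, and 12 and 14 urea SATB1 summits in thymocytes. AT content was 59.4% in that gap and 56.5% to 57.9% in the 4 histone runs.

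**Figure D5:**
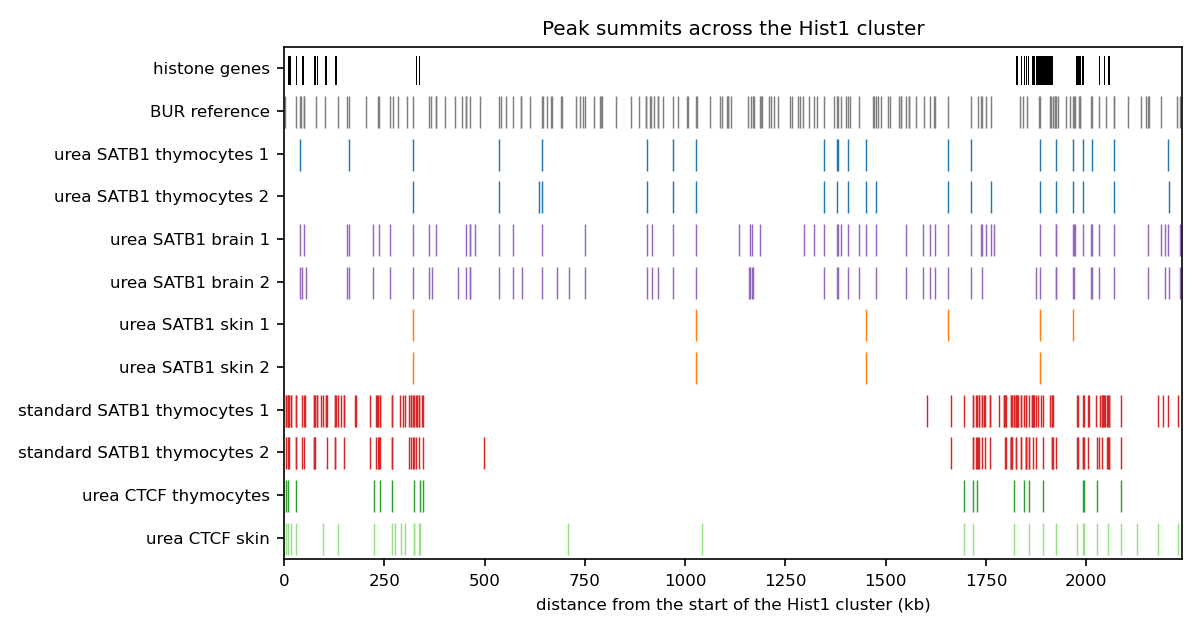
Peak summits of the 11 lists (1 row each, 1 tick per summit) and the histone genes (top row, black) along the Hist1 cluster, as distance in kb from its start. Standard SATB1 and CTCF ticks gather around the histone genes at both ends, and 22 of 22 and 16 of 17 standard ticks of the wide gap lie in the 25% of it next to Hist1h4h, while BUR and brain urea SATB1 ticks run through the gap, and skin replicate 2 has 4 ticks in all.

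SATB1-bound BURs were counted to ask how much of the reference map in the cluster was occupied. Of the 163 BURs of the Hist1 cluster, the urea lists covered 18 and 16 in thymocytes (10.4% ± 0.868, SD, n = 2), 45 and 38 in brain (25.5% ± 3.04) and 5 and 3 in skin (2.45% ± 0.868), and each standard list covered 1. The order skin, thymocytes, brain had no overlap (exact one-sided Jonckheere-Terpstra p = 0.0111 over 90 arrangements, adjusted p = 0.0222), and it was lost when the lists were cut to equal size (3.07% and 1.84%, 4.29% and 4.29%, and 3.07% and 3.07%, exact p = 0.367). The study had reported this order for bound BURs of the whole genome in these same samples, so the one-sided test is no independent support for it. Set against all BURs, of which 13.4% were bound in thymocytes, 34.8% in brain and 3.64% in skin, the bound share in the cluster was lower in each of the 6 lists, at 0.776 ± 0.00246, 0.731 ± 0.0447 and 0.672 ± 0.229 of the genome-wide share. Over the 6 lists this ratio was not ordered by cell type (exact two-sided p = 0.578, adjusted p = 0.578). That rests on skin replicate 2, at 0.51 from 3 bound BURs. Without that list the ratio fell from skin (0.834) through thymocytes (0.774 and 0.777) to brain (0.762 and 0.699) without overlap. With lists of equal size it was 1.02 in both thymocyte lists, 0.672 and 0.676 in brain and 0.856 and 0.51 in skin, so in thymocytes the cluster was no longer below all BURs.

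CTCF, a boundary protein that also binds many promoters, lay near more histone genes than urea SATB1 did. A CTCF peak was in the body or 10 kb window of 33 histone genes in thymocytes and 44 in skin, 47.1% and 62.9%, where the all-gene shares were 51.3% and 61.6%. Within 10 kb of the start the counts were 31 and 44, and the all-gene shares were 32.4% and 40.6%. Both lists had a peak at 28 of the histone genes, the thymocyte list alone at 5, the skin list alone at 16, and neither at 21. The overlap was not counted for all genes, and the skin list is the larger, with 31509 peaks against 20323. These counts are therefore not shown to be particular to histone genes. The highest values in thymocytes were 15.1 for a peak 6077 bp from Hist1h4h and 8933 bp from Hist1h2af, 12.4 for the peak inside Hist2h2bb, 8799 bp from Hist2h3b, and 11.8 for a peak 586 bp from Hist1h4j. In skin they were 13.3 for a peak 8204 bp beyond Hist2h2bb, 10.9 for a peak 6018 bp from Hist1h2ah and 6726 bp from Hist1h2bk, 10.5 for a peak in the body of Hist1h2be and 10.0 for one 8603 bp from Hist2h3b. Of the 81 and 57 standard SATB1 peaks within 1 kb of a histone gene, 8 and 6 overlapped thymocyte CTCF and 1 and 0 overlapped a BUR, against 22.2% and 18.0% (CTCF) and 3.78% and 5.2% (BUR) of each whole list. A single CTCF list was used for each cell type, and a second urea CTCF sample of thymocytes was not analysed here, so these counts have no replicate error.

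Outside Hist1 the standard peaks were at every gene in both replicates. In the Hist2 cluster Hist2h2ab, Hist2h2ac and Hist2h2be shared a peak of 4.24 and 4.93 (mean 4.58 ± 0.491, n = 2). Hist2h2aa1 and Hist2h3c1, which overlap, shared one of 8.94 and 5.39. Hist2h3b, an H3 gene, had 6.2 and 3.81. In the Hist3 cluster Hist3h2ba had 5.03 and 5.11, and Hist3h2bb-ps (5.74 and 3.94) and its neighbour Hist3h2a (5.74 and 3.72) also had CTCF peaks of 5.14 in thymocytes and 3.75 in skin within 1 kb. The isolated Hist1h2al, an H2A gene, had 8.54 and 6.1. Replicate 2 was lower for 37 of the 53 genes with a peak in both.

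Genes of related function were looked at in the same way. Of 13 genes whose products drive histone transcription or cut histone pre-mRNA, 13 and 12 had a standard peak within 1 kb of the gene in the 2 replicates, where the all-gene shares were 61.8% and 49.8%. The highest were Zfp473, a U7 small nuclear RNP partner (20.5 and 12.9), and Casp8ap2 (16.6 and 12.0) and Npat (11.4 and 9.54), which mark the histone locus body. The highest also included Cpsf2, a member of the cleavage complex (11.1 and 12.5), and Lsm11, a U7 small nuclear RNP protein (12.3 and 8.17). A urea SATB1 peak in thymocytes lay within 1 kb of 5 and 4 of the 13, where 25.4% and 23.9% of all protein-coding genes had one, among them Casp8ap2 (21.3 and 24.4) and Cpsf2 (12.9 and 11.0), and Npat had one in replicate 1 alone (5.93). In brain it was 6 and 6, where the all-gene shares were 37.6% and 36.0%, with Casp8ap2 at 21.4 and 20.2 and Npat at 17.1 and 16.1. Of 12 replacement and variant histone genes, 9 and 8 had a standard peak within 1 kb, where the all-gene shares were 61.8% and 49.8%. Among them were H2afv (9.48 and 5.18), Cenpa (9.28 and 5.17), H2afz (8.17 and 5.99), H2afx (7.32 and 6.59) and H1f0 (6.34 and 7.41). In thymocytes 0 of these 12 had a urea SATB1 peak within 10 kb in either replicate, where the all-gene shares were 36.4% and 34.3%. In brain 4 and 1 of them had one in that window, where the all-gene shares were 53.5% and 51.6%. In skin it was 1 and 1, with all-gene shares of 16.5% and 16.0%. The urea counts of the 13 genes above are for 1 kb, and within 10 kb they were 7 and 6 in thymocytes. These genes differ in length from the 70 histone genes, and a longer body collects more peaks.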

How the data were processed

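The 11 peak lists were deposited as narrowPeak tables in mm9 coordinates. The authors aligned reads with Bowtie2 2.3.1, allowing 3 mismatches in the seed and keeping unique matches, and called peaks per sample with MACS2 2.2.7 at q 0.01. Whether an input sample was used is not given in the sources used here. The deposited columns used were the fold enrichment (a ratio), the summit and the −log10 q-value; the −log10 p-value and the score column, 10 times the −log10 q-value written by the authors' caller, were not used. Replicate means are arithmetic, and fold enrichment is that of the highest peak in a window. A member had a peak when at least 1 bp overlapped its gene body with 10 kb (or 1 kb) on each side; summits placed peaks in parts of the cluster. Of the 4 exact permutation tests, the one-sided ordered form and the 2 against 2 comparison were checked on simulated data. The two-sided ordered form, the replicate block described below and the adjustment were not. The members and lists were chosen with earlier results of these data known. The cluster was settled after the annotation was seen, as Hist1h genes with gaps under 2 Mb, which leaves out Hist1h2al. Genes named were the 10 highest by standard fold enrichment in both replicates, those nearest replicated urea sites, the 5 highest by CTCF in each cell type, all Hist2, Hist3 and Hist4 genes, the ends of each run, and the highest of 2 related lists. Unique 50-base words were counted on the NCBIM37 genome, the sequence of mm9, from which sequences were read. Read depth is unknown, so no counting interval is given. Python 3, numpy, pandas and pysam were used. Samples from Satb1-/- mice, inputs and chromatin interaction data were not analysed here, and some sequences are not reported here.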

Additional observations from a re-analysis of the deposited data

How the results depend on the processing

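Over 18 results and 106 alternatives, 90 kept direction and side of the threshold or moved by under 1.5 times. Equal-size urea SATB1 lists gave exact permutation p = 0.9 for the order of members, now with brain lowest, p = 0.367 for the order of bound BURs and p = 1.0 for the ratio to all BURs, with no order. Leaving out each sample moved the p of that ratio between 0.0667 and 1.0, the latter without skin replicate 1. Under the replicate block (exact permutation within replicate numbers, which the labels do not tie to a shared animal or day) the p-values were 0.0278, 0.0278 and 0.611 for those 3 results, and the 58-gene difference between standard and urea lists had p = 0.5, the smallest value the pairing allows. With 3 kb in place of 10 kb around the gene body, the mean counts of members were 3.0 (urea thymocytes), 7.0 (brain), 1.0 (skin), 27.0 (BUR), 17.0 (CTCF thymocytes) and 26.0 (CTCF skin). Within the Hist1h gene windows alone, peaks per Mb were 160.0 (standard), 6.24 (urea skin), 32.5 (CTCF thymocytes) and 49.9 (CTCF skin). Stretching the cluster to Hist1h2al, an alternative chosen after seeing the data, gave 19.9 (standard) and 4.13 (urea skin). The narrower windows hold less DNA; the cause of the other changes was not tested. Depth is unknown, so a missing peak is not shown to be absent binding.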

Other observations

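The Hist1 cluster also holds 48 protein-coding genes that are not histone genes. None of the 33 vomeronasal receptor genes, which encode pheromone receptors, had a standard SATB1, urea SATB1 or CTCF peak within 1 kb of the gene in any list, and 7 had a BUR there. Among all protein-coding genes the shares within 1 kb were 61.8% and 49.8% (standard). They were 25.4% and 23.9% for urea SATB1 in thymocytes and 37.6% and 36.0% in brain. Shares within 1 kb were not counted for the skin, CTCF and BUR lists. Of the other 15 genes, 10 and 5 had a standard SATB1 peak within 1 kb in the 2 replicates. The receptor genes are shorter than most of these 15, and a longer body collects more peaks. How much of the receptor sequence is unique was not measured, and the 2 kinds of gene were not tested against each other. Abt1, a basal transcription factor activator, and Hfe, the iron regulator, each had 2 standard peaks in each replicate, and Prss16, a protease of the thymus cortex, had 2 in replicate 1, 0 in replicate 2 and 0 in the urea SATB1 lists of thymocytes.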
